A study of Mus musculus with 12 samples.

Results

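Marginal zone (MZ) B cells were compared with follicular (FO) B cells from mice with wild-type Bcl6, on 4 of the 12 arrays of the series. The 4 arrays are those whose titles name the Bcl6(+/+) genotype, 2 of MZ and 2 of FO cells. All 4 came from spleens of female C57BL/6 mice aged 10 weeks that carried 1 mb1-cre allele, which drives Cre recombinase in the B lineage, so the cells compared here express Cre but have no floxed Bcl6. The FO cells were sorted as B220+AA4.1-CD21intCD23+ and the MZ cells as B220+AA4.1-CD21highCD23low, after magnetic depletion with antibodies that included CD5, CD43, CD138, CD95, CD11b and CD3. The other 8 arrays held the same cell types from mice with 1 floxed Bcl6 allele (heterozygous) or 2 (homozygous), 2 arrays for each cell type and genotype.

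Most mature B cells of the spleen are FO cells, which recirculate through blood and lymph, live in B cell follicles and enter germinal centres with help from T cells. MZ cells stay at the border of the white pulp, facing the blood that passes through the marginal sinus, and turn rapidly into plasmablasts when they meet blood-borne microbes. They depend on signals through NOTCH2, are held in place by sphingosine-1-phosphate receptors and integrins, carry much CD21 (complement receptor 2) and CD1d, and shuttle antigen into the follicle.

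Each value is a log2 expression value per gene, and each difference is MZ minus FO on that scale, with a standard error (SE) from limma. A gene is called where its adjusted p from limma was under 0.05. Whether replicate arrays of a group used different animals is not stated, so each p rests on a spread that may be technical only. All 6 FO arrays share a lowest value of 2.21 and all 6 MZ arrays one of 2.22, so each cell type appears to have been normalized in a run of its own. A difference between the runs and one between the cell types cannot be told apart. On 18 hybridization control probe sets, whose RNA is added in fixed amounts, the MZ mean over 6 arrays differed from the FO mean by -0.22 to 0.03. Values near the lowest one collect at a flat level, so the size of a difference against it depends on the background correction. Of 22308 probe sets that were flat in both cell types (at least 4 of 6 arrays within 0.01), 200 had flat levels more than 1 log2 unit apart.

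MZ replicate 1 stood apart from the other arrays. Its Gapdh 3' minus 5' control difference was 6.90, against -0.20 to 0.63 on the other 11 arrays, and its beta-actin difference was 2.19 against 0.64 to 1.07. Between the 2 MZ arrays 1351 of 9306 genes (14.5%) were apart by 1 log2 unit or more, against 313 to 587 in the other 5 groups. Counts are therefore also given without MZ replicate 1 where they changed by more than 1.5 times. RNA quality and other causes of the gap between the 2 arrays were not tested.

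Of 9306 genes tested, 993 (10.7%) were higher in MZ and 1073 (11.5%) were lower. Of these, 781 (8.39%) and 652 (7.01%) differed by at least 1 log2 unit. The median over all genes tested was -0.12, and it moved to -0.01 when each array was centred on its median, under which 1166 genes were higher and 839 lower. In each gene called, both MZ arrays lay on the same side of both FO arrays, as they did, higher or lower, in 23.1% and 33.7% of all genes tested. Among the genes higher in MZ 203 had an FO mean within 0.5 of the minimum, and among those lower 66 had an MZ mean there. Only 47 called genes were flat in both cell types, so that their difference may be one between flat levels. A gene counts as flat on at least 4 of 6 arrays, and the wild-type arrays need not be among them. Without MZ replicate 1, 725 genes (7.79%) were higher and 793 (8.52%) lower, and 684 of the 993 and 657 of the 1073 kept their call.

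**Figure D1:**
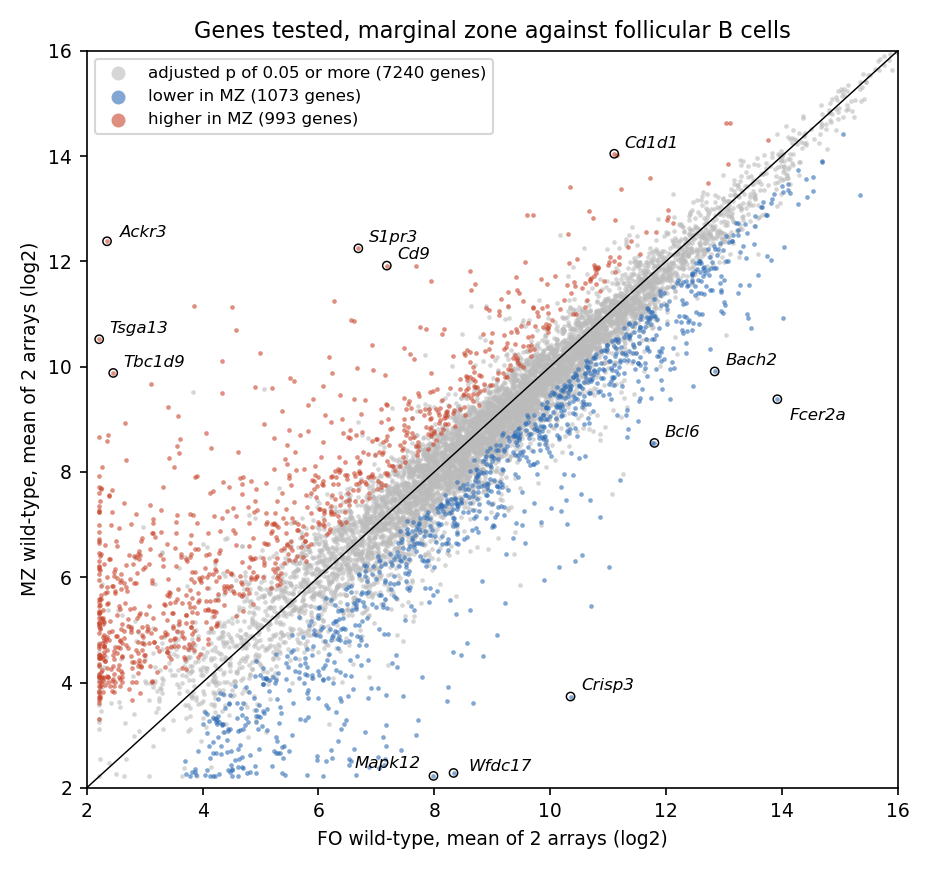
Mean log2 value in the 2 MZ arrays against the mean in the 2 FO arrays for the 9306 genes tested, with the line of equal values. Red points are the 993 genes higher in MZ and blue points the 1073 lower, and the columns of points at the left and bottom edges are genes at the flat minimum in one cell type.

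The largest difference was that of Ackr3 (CXCR7), a scavenging receptor for the chemokine CXCL12. It measured 2.35 on both FO arrays and 12.76 and 12.01 on the MZ arrays, a difference of 10.03 ± 1.08 (SE; limma adjusted p = 0.000295). A second scavenging receptor, Ackr2, which takes up inflammatory CC chemokines, measured 4.26 and 4.76 in FO and 10.97 and 11.28 in MZ. It was higher in MZ by 6.61 ± 0.35 (limma adjusted p = 7.29e-06). In both genes the 2 arrays of a cell type were closer to each other than to any array of the other.

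Ackr3 differed less between the cell types in mice with floxed Bcl6. Its FO arrays measured 7.15 and 2.94 in heterozygous and 12.15 and 11.14 in homozygous mice, while all MZ arrays lay between 12.01 and 13.31. MZ minus FO was thus 7.34 in heterozygous and 1.67 in homozygous mice, a change between genotypes that was not tested here. Ackr2 kept a difference of 6.22 and 5.46.

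Tsga13, a gene named for testis expression, lay at 2.22 on both FO arrays and at 10.65 and 10.39 on the MZ arrays. Tbc1d9, which carries a domain of Rab GTPase activators, lay at 2.47 and 2.45 in FO and at 9.94 and 9.82 in MZ. Nebl, an actin-binding protein, measured 4.07 and 3.64 against 11.28 and 11.02. These 3 genes were higher in MZ by 8.30 ± 0.21, 7.42 ± 0.14 and 7.29 ± 0.21 (limma adjusted p of 2.27e-07, 5.16e-08 and 5.52e-07). Pla2g7, an enzyme that breaks down platelet-activating factor, was higher by 6.45 ± 0.41, and Asb2, a ubiquitin ligase subunit that targets filamins, by 6.26 ± 0.77. The same rule named Rundc3b, AF067061, Tnfrsf21 (death receptor 6), Smyd2 (a lysine methyltransferase) and Cacnb4 (a calcium channel subunit), with differences from 5.72 to 6.34. All 15 genes with the largest differences upward stayed called whichever of the 12 arrays was left out.

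**Figure D2:**
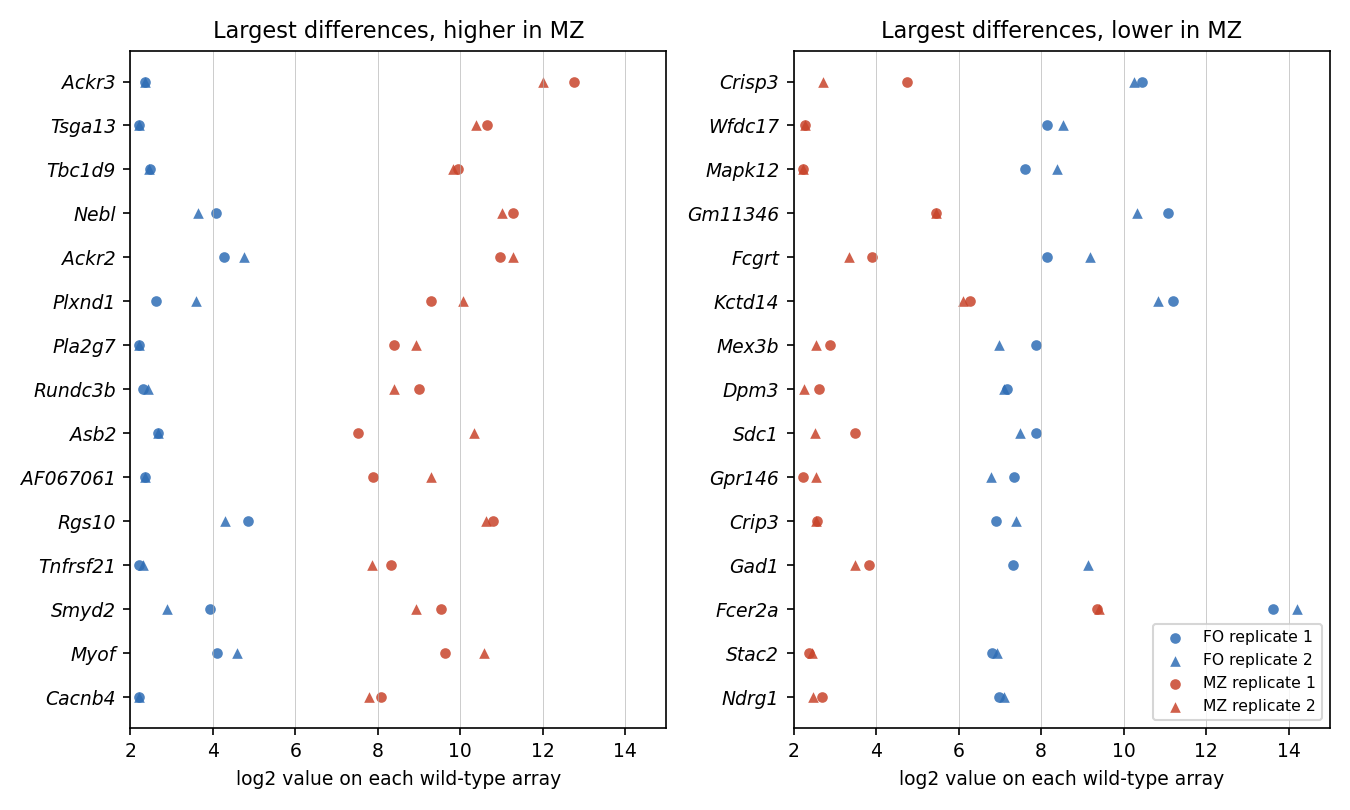
Log2 values on each of the 4 wild-type arrays for the 15 genes with the largest difference in each direction (blue FO, red MZ, circles replicate 1, triangles replicate 2). The blue and red points of every gene lie apart, as the choice of these genes required. The 2 MZ points lie farthest apart in Asb2 (7.53 against 10.33).

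The genes lowest in MZ against FO included secreted proteins, a kinase and receptors of the cell surface. Crisp3, a cysteine-rich secretory protein, measured 10.45 and 10.25 on the FO arrays and 4.75 and 2.71 on the MZ arrays. Wfdc17, a small secreted protein of the whey acidic protein family, measured 8.14 and 8.53 in FO and 2.28 on both MZ arrays. Mapk12, the gamma form of the stress kinase p38, measured 7.60 and 8.37 in FO and lay at 2.23 and 2.22 in MZ. Their differences were -6.62 ± 0.57, -6.05 ± 0.23 and -5.76 ± 0.45 (limma adjusted p of 8.55e-05, 1.68e-06 and 4.72e-05), with the MZ arrays of the last 2 genes at or near the minimum.

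Fcgrt encodes the neonatal Fc receptor, which rescues IgG and albumin from breakdown. Its values were 8.13 and 9.19 in FO and 3.89 and 3.34 in MZ, a difference of -5.05 ± 0.41 (limma adjusted p = 6.34e-05). Gad1, which makes the transmitter GABA from glutamate, was lower by -4.58 ± 0.49, and Ndrg1, a gene induced by hypoxia, by -4.45 ± 0.54. Kctd14, Mex3b (an RNA-binding protein), Dpm3 (a subunit of dolichol-phosphate mannose synthase), Gpr146, Crip3, Stac2 and Gm11346 were lower by between -5.24 and -4.47. The lower set also held Sdc1 and Fcer2a, which encode CD138 and CD23, proteins of the depletion and the sorting gate. All 15 stayed called whichever array was left out.

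Fcer2a and Cr2, whose proteins set the 2 gates apart, differed in the direction of the gate. Fcer2a measured 13.63 and 14.21 in FO and 9.36 and 9.40 in MZ, and its second probe set 9.66 and 9.25 against 2.22 and 5.33. Cr2, which encodes CD21, measured 12.84 and 13.37 in FO and 14.38 and 14.88 in MZ. Ptprc (CD45, which the B220 antibody detects) lay between 14.49 and 14.80 on all 4 arrays. Cd93, which encodes AA4.1, the marker of immature B cells that both gates excluded, measured 5.93 and 6.04 in FO and 2.54 and 2.50 in MZ. The gates do not set the cell types apart by Cd93, which was lower in MZ by -3.46. Its call was lost with array weights (limma adjusted p = 0.0577). The Fcer2a and Cr2 differences are a check of the labels and not a finding.

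The members of all lists were chosen with earlier results of these data known, so their shares are a description and no independent test. Genes listed as markers of MZ identity were nearly all higher in MZ. Of 16 tested, 14 were higher (87.5%, against 10.7% of all genes) and 0 lower (limma, with 0 at an unadjusted p under 0.05), with a median of 3.18 against -0.12 over all genes tested. Without the gate gene Cr2 13 of 15 were higher (86.7%), with a median of 3.28. Without MZ replicate 2, 1 was lower. S1pr3, a receptor for sphingosine-1-phosphate, measured 6.93 and 6.44 in FO and 11.57 and 12.92 in MZ, a difference of 5.56 ± 0.81 (limma adjusted p = 0.00156). Cd9, a tetraspanin used as a surface marker of MZ cells, measured 7.21 and 7.15 against 11.87 and 11.97. Cd1d1, which presents lipids to natural killer T cells, measured 11.39 and 10.83 against 13.87 and 14.21. Cd9 and Cd1d1 were higher by 4.74 ± 0.26 and 2.94 ± 0.27, with the 2 arrays of each cell type close together.

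The other MZ markers covered adhesion, membrane repair and lipid uptake. Plxnd1, a semaphorin receptor, was higher by 6.57 ± 0.37, and Myof, a membrane repair protein, by 5.77 ± 0.38. Cd36, a scavenger receptor for fatty acids and oxidized lipids, was higher by 4.23 ± 0.26. Tlr3, which senses double-stranded RNA, was higher by 4.14 ± 0.71, and Dph5, an enzyme of diphthamide synthesis, by 3.28 ± 0.31. The 2 not called were Mzb1, a chaperone of antibody secretion, at 0.67 (limma adjusted p = 0.0528), and Acp5, a phosphatase, at -0.41.

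FO identity markers went the other way, with 7 of 13 lower in MZ (53.8%, against 11.5% of all genes), 0 higher (limma, with 0 at an unadjusted p under 0.05) and a median of -1.91. Without the gate gene Fcer2a 6 of 12 were lower, with a median of -1.77. After Fcer2a came Itgb7, an integrin chain of homing to the gut, which measured 10.52 and 11.21 in FO and 7.31 and 6.98 in MZ. Il4ra, the receptor chain for interleukins 4 and 13, measured 10.58 and 10.80 in FO and 6.61 and 8.33 in MZ. Itgb7 was lower by -3.73 ± 0.39 and Il4ra by -3.22 ± 0.44 (limma adjusted p of 0.000247 and 0.00112). Neither overlapped between the cell types, as was so of every gene called. Cd200, an inhibitory ligand, was lower by -2.96 ± 0.39. The chemokine receptor Cxcr5, which guides B cells into follicles, differed by -0.72 and the transcription factor Klf2, which favours recirculation, by -1.44, and neither was called. In Cxcr5 MZ replicate 1 lay at 10.95 and MZ replicate 2 at 12.51, beside 12.43 and 12.47 in FO.

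**Figure D3:**
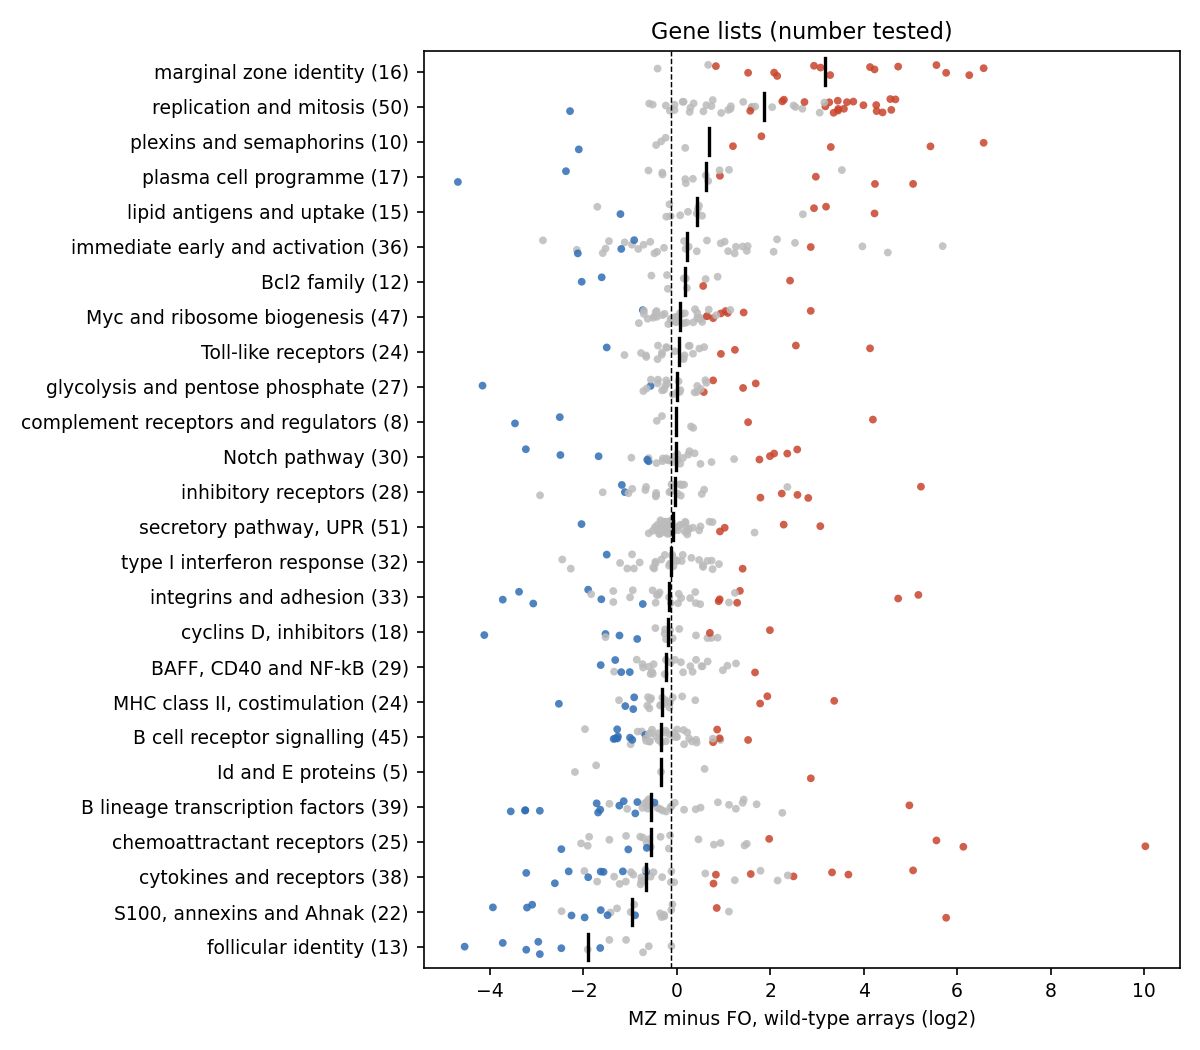
MZ minus FO for each tested member of 26 gene lists, ordered by the list median (black bar), with the number tested in brackets. Red members were higher and blue members lower in MZ at a limma adjusted p under 0.05, grey members were not called, and the dashed line is the median of all genes tested, -0.12.

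Notch signalling genes moved in both directions. In this pathway a ligand on a stromal cell releases the intracellular part of NOTCH2, which joins RBPJ on DNA and switches on targets such as Hes genes, Dtx1 and Nrarp, while Fringe enzymes add sugars to the receptor and tune its response to ligands. Of 30 members tested 5 were higher and 5 lower (16.7% each, against 10.7% and 11.5% of all genes), with a median of -0.02. The Hes5 target promoter is shown because it holds the RBPJ core, TGGGAA or its reverse complement, in capitals, in the 300 bases from chr4:154960673-154960972 on the plus strand of GRCm38.p6 (RefSeq, 250 bases before to 50 after the start of the gene):
Hes5: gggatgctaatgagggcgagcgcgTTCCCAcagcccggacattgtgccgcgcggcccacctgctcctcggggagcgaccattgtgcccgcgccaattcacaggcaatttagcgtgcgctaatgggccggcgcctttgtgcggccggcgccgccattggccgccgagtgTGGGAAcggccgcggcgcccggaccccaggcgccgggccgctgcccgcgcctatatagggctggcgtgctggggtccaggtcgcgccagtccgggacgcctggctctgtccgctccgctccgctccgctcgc
That core stood in 2 places in this window, and 25.6% of 32851 such windows of all genes held it at least once. Windows were found for 24 of the 30 genes tested, with 33 windows in all, of which 27.3% held it. Of the 3 windows of 3 higher members 1 held it, and the window of the target Dtx1 held it in 0 places. No binding was measured here.

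Hes5, a repressor and Notch target, measured 5.01 and 4.15 in FO and 6.03 and 8.28 in MZ, a difference of 2.58 ± 0.67 (limma adjusted p = 0.0255). Dtx1, a ubiquitin ligase of the pathway, measured 10.62 and 10.84 in FO and 12.35 and 13.28 in MZ, and was higher by 2.08 ± 0.29 (limma adjusted p = 0.00112). Its second probe set went the other way, so that the mean of both gave -0.15 (limma adjusted p = 0.613). Dtx4 was higher by 1.99 ± 0.21 and Aph1b, a subunit of gamma-secretase, by 2.37 ± 0.38.

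Other parts of the pathway were lower in MZ. Lfng, the Fringe enzyme, measured 6.51 and 6.37 in FO and 3.55 and 2.87 in MZ, a difference of -3.23 ± 0.22 (limma adjusted p = 2.34e-05). Nrarp, a target that limits Notch activity, measured 4.81 and 5.01 in FO and 2.47 and 2.37 in MZ, a difference of -2.49 ± 0.14. Numbl, related to the Notch inhibitor Numb, was lower by -1.67 ± 0.16. Targets and regulators therefore did not share a direction. The receptor Notch2 itself measured 12.67 and 12.85 in FO and 12.61 and 12.52 in MZ and was not called (limma adjusted p = 0.481). Without MZ replicate 1, or without FO replicate 2, 3 members were lower in place of 5. Hes5 and Notch2 were named after their values were seen.

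Id proteins block E proteins, the basic helix-loop-helix factors that direct B cell development. Of 5 members tested 1 was higher (20%, against 10.7% of all genes) and 0 lower (against 11.5%). Id2 measured 7.79 and 7.91 in FO and 11.05 and 10.39 in MZ, a difference of 2.87 ± 0.45 (limma adjusted p = 0.00245). Its relative Id3 was on the other side, at 11.26 and 11.18 in FO and 8.66 and 9.42 in MZ, but its difference of -2.18 ± 0.77 was not called (limma adjusted p = 0.0779). Tcf3, which encodes E2A, measured 10.65 and 10.96 in FO and 7.81 and 10.34 in MZ, so that MZ replicate 1 was the low array. Without that array 2 members were called higher, and without MZ replicate 2 or either FO heterozygous array 1 was called lower. At an unadjusted p under 0.05 all arrays gave 2 lower members.

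Receptors that place B cells within the spleen, and the RGS proteins that switch off their G proteins, gave a few large differences. Of 25 tested 4 were higher (16%, against 10.7% of all genes) and 3 lower (12%, against 11.5%), with a median of -0.56. Rgs10 measured 4.86 and 4.28 in FO and 10.79 and 10.62 in MZ, a difference of 6.13 ± 0.31 (limma adjusted p = 5.31e-06). Rgs3 was higher by 1.98 ± 0.37. S1pr4, another receptor for sphingosine-1-phosphate, measured 10.04 and 10.32 in FO and 7.48 and 7.94 in MZ, and was lower by -2.47 ± 0.50 (limma adjusted p = 0.00879). S1pr3 and S1pr4 thus went in opposite directions. Grk6, a receptor kinase, was lower by -0.64 ± 0.14, and this call was lost under quantile normalization over all arrays (limma adjusted p = 0.0568) and without FO replicate 1 (0.0819).

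Integrins and tetraspanins, which hold cells in place, were split. Of 33 tested, 6 were higher and 6 lower (18.2% each, against 10.7% and 11.5% of all genes). Itgb1, the shared beta-1 chain, measured 7.07 and 6.87 in FO and 8.32 on both MZ arrays, and was higher by 1.35 ± 0.15 (limma adjusted p = 0.000392). Itga6, an alpha chain that pairs with it, measured 8.37 and 8.40 against 5.68 and 4.94, and was lower by -3.07 ± 0.25. Itgb3 measured 5.85 and 6.11 against 2.61 and 2.60. Tspan15, which steers the sheddase ADAM10, measured 2.21 and 2.54 in FO and 7.37 and 7.73 in MZ, a difference of 5.17 ± 0.19. For each of these 4 genes the cell types did not overlap, as was so of every gene called.

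Plexins, semaphorins and neuropilins, a family of guidance receptors and ligands, were higher in MZ in 5 of 10 members tested (50%, against 10.7% of all genes), and 1 was lower. Nrp2, a semaphorin co-receptor, measured 2.24 on both FO arrays and 8.04 and 7.30 in MZ, a difference of 5.43 ± 0.33 (limma adjusted p = 1.27e-05). Sema7a, a membrane-anchored semaphorin, measured 6.68 and 6.67 in FO and 9.68 and 10.26 in MZ. Its receptor Plxnc1 measured 9.80 and 9.89 in FO and 11.69 and 11.62 in MZ. Sema7a and Plxnc1, a ligand and its receptor, were higher by 3.30 ± 0.38 and 1.81 ± 0.18. Sema4b was higher by 1.20 ± 0.24, and Sema4a was lower by -2.10 ± 0.18. Without MZ replicate 2 there were 2 lower members.

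Among genes of B cell receptor signalling 4 of 45 were higher (8.89%, against 10.7% of all genes) and 8 lower (17.8%, against 11.5%), with a median of -0.33. Without Cr2 and Ptprc of the gate 3 of 43 were higher and 8 lower. The lower members named here act downstream of the receptor. Tec, a kinase, was lower by -1.35 ± 0.21, Grb2, an adaptor, by -1.32 ± 0.26, Rasgrp3, which activates Ras, by -1.28 ± 0.22, and Pik3cg, a lipid kinase, by -1.27 ± 0.19 (limma adjusted p from 0.00181 to 0.00774). Grb2 was lower in MZ by only -0.46 in the floxed arrays, where it was not called. Without FO replicate 1 a single member was higher, and without FO replicate 2, 5 were lower.

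Inhibitory receptors and phosphatases were higher in 5 of 28 (17.9%, against 10.7% of all genes) and lower in 2 (7.14%, against 11.5%). Without the depleted Cd5, 4 of 27 were higher and 2 lower. Lair1, a collagen receptor, measured 2.35 and 2.52 in FO and 7.93 and 7.39 in MZ, a difference of 5.23 ± 0.24 (limma adjusted p = 3.81e-06). Ptpn22, a phosphatase that dampens antigen receptor signals, measured 8.63 and 8.66 in FO and 11.75 and 11.16 in MZ, a difference of 2.81 ± 0.32. Dok2, an adaptor, was higher by 2.58 ± 0.14. Btla, a receptor for HVEM, was lower by -1.18 ± 0.24. The lower calls of this list fell to 0 without MZ replicate 1 (at an unadjusted p under 0.05 they were 3), to 1 without FO replicate 2 and rose to 5 without MZ replicate 2.

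Markers of B-1 cells, a further B cell type of the spleen with little CD23, were also compared. Of 14 listed, 12 had a probe set and 7 were tested. Of these, 5 were higher in MZ (71.4%, against 10.7% of all genes) and 1 lower, with a median of 2.81. Without Cd5 and Spn, which the depletion targeted, 4 of 5 were higher. Cd5, which this list and the inhibitory receptors share, measured 2.30 on both FO arrays and 4.54 and 3.63 in MZ. Plscr1 and Cd300lf were higher by 3.56 ± 0.68 and 3.99 ± 0.38, while Spn (CD43) was lower by -2.31 ± 0.39. The mean of the 12 was 4.10 and 3.93 on the FO arrays and 5.71 and 5.0 on the MZ arrays. Rbm47 measured 2.24 on both FO arrays and 5.67 and 5.66 on the MZ arrays, and Ptpn22 was also higher. Ctla4, the 1 tested member not called, measured 2.22 on both FO arrays, 6.67 on MZ replicate 1 and 2.50 on MZ replicate 2. Of the members too low to be tested, Bhlhe41 lay between 2.22 and 2.30 on all 4 arrays. Itgam (CD11b), which the depletion targeted, lay between 2.21 and 2.47, and Tppp3 between 2.21 and 2.22. Nt5e measured 2.60 and 2.22 in FO and 3.36 and 3.02 in MZ, and Zbtb32 3.43 and 3.52 against 3.12 and 2.80. What share of the MZ values came from such cells was not tested, and in bulk RNA more cells of a type and more RNA per cell cannot be told apart.

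Sensors of microbes and complement included a few large differences. Among Toll-like receptors and their partners 4 of 24 were higher (16.7%, against 10.7% of all genes) and 1 lower (4.17%, against 11.5%). Ly96 (MD-2), the partner of TLR4 in sensing lipopolysaccharide, measured 6.63 and 6.99 in FO and 9.37 and 9.34 in MZ, a difference of 2.55 ± 0.25 (limma adjusted p = 0.00019). Tlr7, a sensor of single-stranded RNA, was higher by 1.24 ± 0.31, a call lost without either MZ array or FO replicate 2 (limma adjusted p from 0.063 to 0.109). Without MZ replicate 2, 2 members were higher in place of 4. Irf7, a factor of the interferon response, was lower by -1.50 ± 0.41 and lost the call without FO replicate 1, MZ replicate 2, any floxed FO array or either MZ homozygous array. Without MZ replicate 1 the lower members were 2.

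Of 8 complement receptors and regulators 2 were higher and 2 lower (25% each, against 10.7% and 11.5% of all genes). Cr2 and Cd93 of the gate were among them, and without these 1 of 6 was higher and 1 lower (16.7% each). The regulators that shield cells from complement went in opposite directions. Cd59a, which blocks the membrane attack complex, lay at 2.25 on both FO arrays and at 6.46 and 6.43 in MZ, a difference of 4.20 ± 0.18 (limma adjusted p = 2.76e-06). Cd55, which speeds the decay of the C3 convertase, measured 13.24 and 13.60 in FO and 10.93 and 10.90 in MZ, a difference of -2.50 ± 0.19 (limma adjusted p = 3.98e-05). Neither gene overlapped between the cell types, as was so of every gene called. The higher calls were 1 without FO replicate 1, and the lower calls 1 without that array, FO replicate 2 or MZ replicate 1.

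Genes of lipid presentation and uptake were higher in 3 of 15 (20%, against 10.7% of all genes) and lower in 1 (6.67%, against 11.5%). Beside Cd1d1 and Cd36, Cd1d2, its paralog, measured 2.59 on both FO arrays and 5.36 and 6.21 in MZ, a difference of 3.19 ± 0.27. Cd1d1 and Cd1d2 are near-identical, and how far their probes tell them apart is uncertain. Abca1, which exports cholesterol, was lower by -1.21 ± 0.33, a call lost without MZ replicate 1 (limma adjusted p = 0.155) or either FO array. Without MZ replicate 1, 5 members were higher, and without MZ replicate 2, 2 were lower.

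MHC class II genes and costimulatory molecules were higher in 3 of 24 (12.5%) and lower in 4 (16.7%), shares near those of all genes. The 3 higher genes encode ligands through which B cells costimulate or restrain T cells. Cd80 measured 2.21 on both FO arrays and 5.72 and 5.44 in MZ, a difference of 3.37 ± 0.19 (limma adjusted p = 8.73e-06). Cd86 measured 7.82 and 7.61 in FO and 9.57 and 9.43 in MZ, a difference of 1.78 ± 0.19. Cd274 (PD-L1) was higher by 1.94 ± 0.38. H2-Ob, which restrains peptide loading, was lower by -0.93 ± 0.15, and Cd83 by -0.91 ± 0.18. The lower calls were 2 without MZ replicate 1 or either FO array.

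Transcription factors of the B lineage were more often called lower than higher in MZ, with 12 of 39 lower (30.8%, against 11.5% of all genes), 1 higher and a median of -0.55. Bcl6, a repressor needed for germinal centres and the gene the study deletes, measured 11.95 and 11.65 in FO and 8.29 and 8.81 in MZ, a difference of -3.25 ± 0.23 (limma adjusted p = 2.51e-05). Its second probe set measured 4.94 and 5.61 in FO and lay at the minimum of 2.22 in MZ. Bach2, a repressor that delays the plasma cell fate, measured 12.67 and 13.01 in FO and 10.27 and 9.55 in MZ. Both genes were thus lower on both MZ arrays, Bach2 by -2.93 ± 0.36.

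Lef1, a factor of the Wnt pathway, was lower by -3.55 ± 0.33 and Sox4, a factor of early B cells, by -3.24 ± 0.42. Fli1, an Ets factor, measured 13.30 and 13.25 in FO and 11.52 and 11.59 in MZ, a difference of -1.71 ± 0.17 (limma adjusted p = 0.000184). Satb1, a chromatin organizer, was lower by -1.64 ± 0.20, and the call was lost in the mean of its probe sets (limma adjusted p = 0.0806). The single higher factor was Ahr, the aryl hydrocarbon receptor, at 6.44 and 6.09 in FO and 12.09 and 10.39 in MZ, a difference of 4.98 ± 0.80 (limma adjusted p = 0.00269). Ahr was named because it was alone in its direction. Beside this list, markers of immature B cells were lower in 3 of 5 tested (60%, against 11.5% of all genes). These were Sox4, Vpreb3 and Cd93, whose call was lost with array weights (limma adjusted p = 0.0577). The other 2, Myb and Cd24a, lay higher on both MZ arrays and were not called. Myb measured 5.61 and 5.63 in FO and 7.19 and 6.90 in MZ, and Cd24a 14.27 and 14.47 against 14.78 and 14.75. Without the gate gene Cd93 2 of 4 were lower, with a median of -0.91. Rag1, Rag2 and Dntt lay at 2.21 to 2.22 on all 4 arrays. The part of immature cells in the list was not tested.

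Genes of the plasma cell programme were mixed, with 4 of 17 higher (23.5%, against 10.7% of all genes) and 2 lower (11.8%, against 11.5%). Prdm1, which encodes BLIMP1, the repressor that drives plasma cells, measured 2.78 and 2.75 in FO and 7.67 and 6.35 in MZ, a difference of 4.24 ± 0.37 (limma adjusted p = 9.91e-05). Il10, a suppressive cytokine, lay at 2.21 on both FO arrays and at 9.23 and 5.31 in MZ. Its difference of 5.06 ± 1.35 (limma adjusted p = 0.0288) lost the call without either FO array or MZ replicate 1 (adjusted p from 0.103 to 0.146). The same array was the higher one for Prdm1, which kept its call at 3.58 without it. Sdc1, whose protein CD138 marks plasma cells and was depleted, measured 7.86 and 7.5 in FO and 3.49 and 2.50 in MZ.

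Of 8 plasma cell markers tested 2 were higher, Prdm1 and Derl3, and 2 lower, Sdc1 and Txndc5, with a median of 0.26. These were 25% each, against 10.7% and 11.5% of all genes. Derl3, which helps remove misfolded proteins, measured 2.85 and 2.79 in FO and 5.76 and 6.02 in MZ, and Txndc5, a disulfide isomerase, was lower by -2.08 ± 0.42. The lower markers were 1 without MZ replicate 1. Irf4 measured 10.27 and 12.35 in FO and 13.01 and 11.84 in MZ, so that the groups overlapped. Tnfrsf17 (BCMA) lay at 2.21 to 2.22 on all 4 arrays, and Jchain at 6.88 and 2.61 in FO and 5.46 and 4.39 in MZ. The mean of the 9 plasma cell markers with a probe set was 7.05 and 6.58 on the FO arrays and 7.18 and 6.87 on the MZ arrays.

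Of the secretory pathway and the unfolded protein response, 4 of 51 genes were higher (7.84%) and 1 lower, which is below the share of all genes in both directions. Derl3 was higher by 3.07 ± 0.15 (limma adjusted p = 3.92e-06). Pdia4, a protein disulfide isomerase, was higher by 2.29 ± 0.44. Sec24d, a coat protein of transport vesicles, was lower by -2.04 ± 0.23, but its values lay at flat levels in both cell types. Without FO replicate 2 the higher calls of this list fell to 2, and without MZ replicate 2 the lower ones were 2.

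Cytokines and their receptors were higher in 7 of 38 (18.4%, against 10.7% of all genes) and lower in 8 (21.1%, against 11.5%). The median was -0.66. Csf2rb, the shared receptor chain for GM-CSF, interleukin 3 and interleukin 5, measured 7.77 and 8.13 in FO and 11.68 and 11.57 in MZ, a difference of 3.67 ± 0.20 (limma adjusted p = 7.71e-06). Il15 was higher by 2.50 ± 0.38 and Il6st, the signalling chain for interleukin 6, by 1.58 ± 0.24. Il21r, a receptor for help from follicular T cells, measured 9.57 and 9.14 in FO and 5.84 and 7.66 in MZ, a difference of -2.61 ± 0.51. Without FO replicate 2 the lower calls fell from 8 to 2.

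Of the BAFF, CD40 and NF-kB list 4 of 29 were lower (13.8%, against 11.5% of all genes) and 1 higher (3.45%, against 10.7%). Nfkbia, the inhibitor that NF-kB itself induces, measured 14.47 and 14.59 in FO and 13.48 and 13.21 in MZ, a difference of -1.19 ± 0.16 (limma adjusted p = 0.000999), with the same sign in its 5 measured probe sets. Bcl3, an atypical inhibitor, was lower by -1.32 ± 0.14. Ikbke, a kinase of antiviral signalling, was higher by 1.67 ± 0.33. Ltb, a lymphotoxin that organizes lymphoid tissue, measured 13.87 and 13.61 in FO and 11.17 and 13.05 in MZ. Its call (-1.63 ± 0.48, limma adjusted p = 0.0427) was lost without any of 10 arrays, and without MZ replicate 1 the difference was -0.69. The lower calls of the list were 2 without FO replicate 2, and the higher ones 2 without MZ replicate 2.

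Genes of DNA replication and mitosis were higher in MZ in 21 of 50 tested (42.0%, against 10.7% of all genes) and lower in 1, with a median of 1.86 against -0.12. Kif20a, a mitotic kinesin, lay at 2.47 on both FO arrays and at 6.98 and 5.24 in MZ, a difference of 3.64 ± 0.60 (limma adjusted p = 0.00299). Uhrf1, which copies DNA methylation, measured 5.19 and 5.20 in FO and 10.62 and 8.57 in MZ, a difference of 4.40 ± 0.72. Tk1, thymidine kinase, measured 6.11 and 6.97 in FO and 8.77 and 8.83 in MZ. Prc1 and Tyms were higher by 3.45 ± 0.54 and 1.57 ± 0.21. The 1 lower member was Cdc25b, a phosphatase that starts mitosis, at -2.29 ± 0.31.

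The size of that count depended on single arrays. The list mean was 6.09 and 5.67 on the FO arrays, 8.58 on MZ replicate 1 and 7.09 on MZ replicate 2. Without MZ replicate 1, 12 members were higher and the median was 1.05, without FO replicate 2 there were 10, and without MZ replicate 2 there were 34. The lower members were 2 without FO replicate 1 or MZ replicate 2. In the 8 floxed arrays, which share none of these, 37 of the 50 were higher in MZ and 2 lower. Over all genes 14.5% were higher and 26.3% lower there, and the list median was 1.91. The list mean in heterozygous mice was 7.16 and 6.93 in MZ against 5.92 and 5.69 in FO. In homozygous mice, which lack wild-type Bcl6 alleles, it was 9.08 and 7.98 against 6.22 and 5.77. Pcna measured 12.76 and 13.23 in FO and 13.57 and 12.67 in MZ, so that this gene of the replication fork, named after its values were seen, overlapped.

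Promoters of mitotic genes often hold a CCAAT box and the cell cycle homology element. Those of 3 higher members are shown, chosen because they hold both motifs. Capitals mark CCAAT and TTTGAA on either strand, where matches may overlap. The windows, from RefSeq on GRCm38.p6, are chr9:70421505-70421804 (minus strand) for the cyclin Ccnb2, chr11:99024140-99024439 (minus) for the topoisomerase Top2a and chr2:164769679-164769978 (plus) for the ubiquitin-conjugating enzyme Ube2c:
Ccnb2: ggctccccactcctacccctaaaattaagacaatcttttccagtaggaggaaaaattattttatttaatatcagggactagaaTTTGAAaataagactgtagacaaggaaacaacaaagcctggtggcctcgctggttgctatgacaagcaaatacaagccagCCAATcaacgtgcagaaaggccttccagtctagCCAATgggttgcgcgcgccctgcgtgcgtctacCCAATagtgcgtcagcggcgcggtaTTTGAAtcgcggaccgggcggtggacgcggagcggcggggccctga
Top2a: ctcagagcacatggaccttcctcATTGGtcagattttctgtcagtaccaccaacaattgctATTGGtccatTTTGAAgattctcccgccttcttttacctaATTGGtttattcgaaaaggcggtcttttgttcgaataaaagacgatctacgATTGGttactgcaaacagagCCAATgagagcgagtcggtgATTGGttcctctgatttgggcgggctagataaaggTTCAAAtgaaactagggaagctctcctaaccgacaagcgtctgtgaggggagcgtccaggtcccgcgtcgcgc
Ube2c: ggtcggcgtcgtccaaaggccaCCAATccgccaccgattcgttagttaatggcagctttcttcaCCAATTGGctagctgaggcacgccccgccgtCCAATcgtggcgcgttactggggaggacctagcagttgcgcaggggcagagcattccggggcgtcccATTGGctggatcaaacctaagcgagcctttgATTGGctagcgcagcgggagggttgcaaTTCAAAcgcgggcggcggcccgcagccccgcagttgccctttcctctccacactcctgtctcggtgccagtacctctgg
Both motifs stood in 47.6% of 42 windows of 39 tested members, in 4.84% of 9770 windows of all genes tested and in 6.95% of 32851 windows of all genes. Of the 17 windows of 15 higher members 52.9% held both. Ccnb2, Top2a and Ube2c were higher by 4.0 ± 0.91, 3.78 ± 0.76 and 3.36 ± 0.90 (limma adjusted p of 0.0147, 0.0084 and 0.0292), and they were named for their motifs after their values were seen.

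Regulators of entry into the cycle did not share one direction. Of 18 tested, 2 were higher and 4 lower (11.1% and 22.2%, against 10.7% and 11.5% of all genes). E2f1, which switches on replication genes, lay at 3.53 on both FO arrays and at 5.51 and 5.53 in MZ, a difference of 1.99 ± 0.14 (limma adjusted p = 2.24e-05). Cdkn2d, an inhibitor of the D-type cyclin kinases, measured 10.43 on both FO arrays and 5.53 and 7.09 in MZ, a difference of -4.12 ± 0.43. Ccnd3, a D-type cyclin, was lower by -1.53 ± 0.22. The lower calls were 2 without MZ replicate 1 or FO replicate 1. A single higher call was left without FO replicate 2 or any homozygous or MZ heterozygous array.

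Myc and genes of ribosome assembly were higher in 7 of 47 (14.9%, against 10.7% of all genes) and lower in 1 (2.13%, against 11.5%). Myc, a transcription factor that drives growth, measured 10.18 and 12.14 in FO and 14.86 and 13.19 in MZ. Its call (2.87 ± 0.86, limma adjusted p = 0.0447) was lost without either MZ replicate 1 or FO replicate 1 (0.221 and 0.232) and without each of 8 floxed arrays, and in the floxed arrays its difference of 0.83 was not called. Mxd4, which opposes Myc at its sites, was higher by 1.43 ± 0.21. The lower calls were 5 without MZ replicate 2 and 0 without FO replicate 2 or any floxed array. The higher calls were 3 without MZ replicate 1 and 4 without FO replicate 1 or any floxed MZ array.

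Immediate early genes varied more between replicates than between the cell types. Their mean was 8.98 and 10.92 on the FO arrays and 11.18 and 9.63 on the MZ arrays, which overlapped. Of 36 tested 1 was higher (Myc) and 3 lower (Ier2, Nfkbia and Cd83), below the share of all genes. Ier2, a nuclear protein, measured 11.58 and 12.56 in FO and 9.73 and 10.18 in MZ, a difference of -2.12 ± 0.45. Without MZ replicate 2, 2 members were higher and 5 lower. Atf3, a stress factor named after its values were seen, measured 3.46 and 4.20 in FO and 12.80 and 6.24 in MZ and was not called (limma adjusted p = 0.197). Handling of the cells before lysis was not tested.

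**Figure D4:**
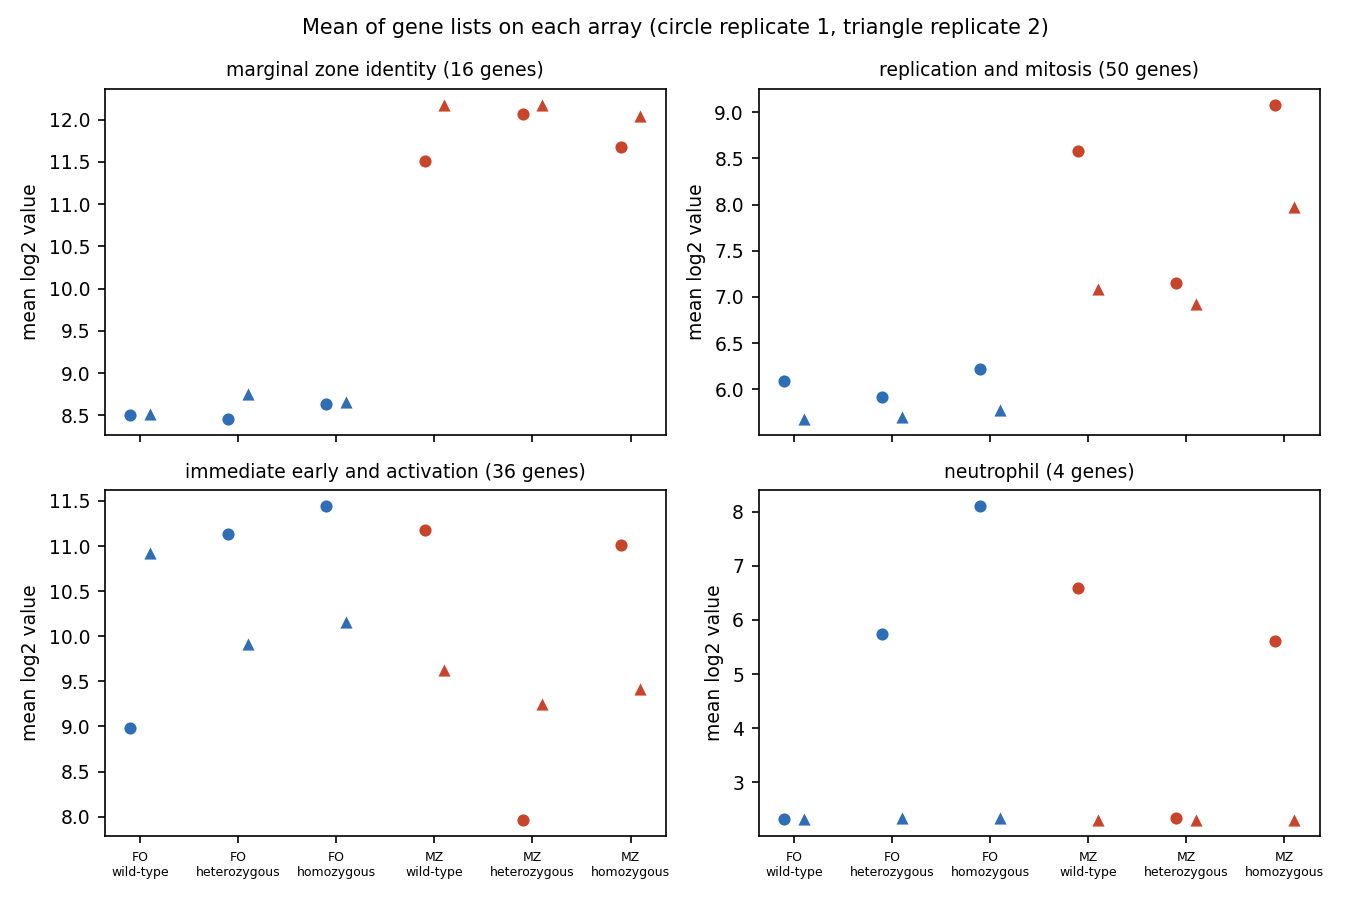
Mean log2 value of 4 gene lists on each of the 12 arrays, by cell type (blue FO, red MZ) and genotype, with circles for replicate 1 and triangles for replicate 2. MZ identity separates the cell types on every array, replication and mitosis spreads from 6.93 to 9.08 over the MZ arrays, and the neutrophil genes are raised on 4 arrays, MZ wild-type replicate 1 among them.

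Markers of neutrophils were seen on MZ replicate 1 alone among the 4 arrays. S100a8 measured 8.11 there and 2.46 to 2.61 on the other 3, and S100a9 measured 7.93 against 2.21 to 2.23. Of 15 neutrophil genes listed 13 had a probe set, and 3 of them reached a log2 value of 4 on MZ replicate 1, against 0 on MZ replicate 2 and 0 and 1 on the FO arrays. The mean of the 13 was 3.85 on that array, against 2.38 to 2.42 on the others. None of the 4 tested was called in either direction (limma; 0 had an unadjusted p under 0.05).

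Markers of T cells and macrophages were compared in the same way. Cd3e, Cd3d and Cd4, of T cells, lay between 2.21 and 2.25 on all 4 arrays. The mean of 19 macrophage genes was 3.70 and 2.96 on the FO arrays and 4.29 and 3.52 on the MZ arrays, and 8, 4, 8 and 5 of them reached a log2 value of 4 on FO replicates 1 and 2 and MZ replicates 1 and 2. C1qb, a complement component made by macrophages, lay between 5.57 and 6.55 on all 4 arrays, and Lyz1, a lysozyme, at 6.46 and 2.32 in FO and 8.10 and 5.34 in MZ. C1qc, Cd14, Marco and Cd163 lay at the minimum. Csf1r measured 3.45 and 2.24 in FO and 5.26 and 4.30 in MZ. Slc40a1 measured 4.11 and 2.55 against 5.78 and 3.97, and Spic 5.04 and 4.42 against 5.81 and 6.24. Csf1r, Slc40a1 and Spic were not called. Of 9 tested 8 had a difference above 0, with a median of 1.29. In that list Cd68 was higher by 2.91 ± 0.53 and Adgre1, a macrophage adhesion receptor, lower by -2.54 ± 0.58, which was not called without either FO array or MZ replicate 2. The higher macrophage genes were 2 without either MZ homozygous array. Adgre1 was counted among the genes of the gate and depletion. Without it 1 of 8 was higher (12.5%) and 0 lower, with a median of 1.42. The part of macrophages in other values was not tested. Cd8a, of the T cell list, was lower by -1.74 ± 0.15 between flat levels in both cell types, and its FO value of 4.30 is therefore no measure of T cells.

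S100 proteins, annexins and related membrane and cytoskeletal genes were lower in MZ in 8 of 22 (36.4%, against 11.5% of all genes) and higher in 2, with a median of -0.95. Ahnak, a giant scaffold protein, measured 9.80 and 9.98 in FO and 6.73 and 5.17 in MZ, a difference of -3.94 ± 0.53 (limma adjusted p = 0.000995). Emp3, a membrane protein, measured 11.60 and 11.90 against 8.60 and 8.49. S100a10 measured 12.97 and 13.02 against 11.20 and 10.83, and its partner Anxa2 6.42 and 6.09 against 4.31 and 3.69. S100a10 and Anxa2, which form one complex at the membrane, were lower by -1.97 ± 0.21 and -2.25 ± 0.28. Without FO replicate 1 a single member was higher.

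Genes of glycolysis were higher in 4 of 27 (14.8%) and lower in 2 (7.41%), against 10.7% and 11.5% of all genes. Members of the Bcl2 family were higher in 2 of 12 and lower in 2 (16.7% each). Slc2a6, a sugar transporter, measured 6.95 and 7.29 in FO and 2.95 and 2.97 in MZ, a difference of -4.16 ± 0.20 (limma adjusted p = 3.92e-06). The higher glycolysis calls fell to 1 without MZ replicate 1 or FO replicate 1 and to 2 without any FO floxed or MZ heterozygous array. Bid, which links death receptors to mitochondria, measured 9.02 and 10.10 in FO and 12.10 and 11.87 in MZ, a difference of 2.42 ± 0.44. Bmf and Bnip3, which promote cell death, were lower by -1.61 ± 0.24 and -2.04 ± 0.28. The higher Bcl2 family calls were 1 without either FO array, MZ replicate 2 or any floxed MZ array, and the lower glycolysis calls 1 without any of the first 3.

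Of 32 genes of the type I interferon response 1 was higher and 1 lower (3.12% each), below the share of all genes. Herc6, an interferon-induced ligase, was higher by 1.41 ± 0.30 and lost the call without MZ replicate 1 (limma adjusted p = 0.0555). The lower member was Irf7. Without FO replicate 1, 5 members were higher and 0 lower, without FO replicate 2, 4 were lower, and without MZ replicate 1, 0 were higher and 2 lower.

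The differences with the smallest p among genes measured in both cell types included those of Ptpn14, Atxn1, Rap1gap and Mfhas1, all higher in MZ. Ptpn14, a phosphatase of the Hippo pathway, measured 4.99 and 4.80 in FO and 9.66 and 9.58 in MZ, a difference of 4.72 ± 0.18 (limma adjusted p = 1.68e-06). Atxn1, a transcriptional corepressor, measured 6.76 and 6.36 against 11.04 and 10.72. Rap1gap, which switches off the adhesion GTPase Rap1, measured 5.12 and 5.36 against 8.71 and 8.60. The 2 arrays of each cell type lay close together in these 3 genes. Cdh17, a cadherin, was higher by 4.31 ± 0.24 and Dusp16, a phosphatase of stress kinases, by 2.99 ± 0.17.

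In the lower direction the smallest p belonged to Rflnb, which binds filamin. It measured 9.34 and 9.11 in FO and 5.58 and 5.45 in MZ, a difference of -3.71 ± 0.17 (limma adjusted p = 3.81e-06). Ssbp2, a partner of LIM domain factors, measured 8.54 and 8.36 against 4.66 and 4.38, with the same sign in its 3 measured probe sets. Gadd45g, a stress response gene, measured 8.94 and 9.24 in FO and lay at a flat 4.90 in MZ. Fam102b, Impdh1 (the first step to guanine nucleotides) and Rbpms (an RNA-binding protein) were lower by -3.81 ± 0.27, -2.32 ± 0.17 and -2.41 ± 0.18. All 20 genes of this kind, 10 in each direction, stayed called whichever array was left out.

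The 8 floxed arrays gave MZ against FO again in samples that the wild-type difference does not use, though in the same 2 normalization runs. The wild-type calls took their spread from all 12 arrays, so the 2 sets of calls are not independent. In them 1346 genes (14.5%) were higher in MZ and 2452 (26.3%) lower. Of the 993 genes higher in wild-type mice 897 (90.3%) were called in the same direction, and of the 1073 lower 989 (92.2%) were. The sign was the same in 980 and 1070. With each set of arrays fitted alone, an alternative chosen after seeing the data, 365 of 371 higher calls (98.4%) and 225 of 233 lower ones (96.6%) of the 4 wild-type arrays were called in the floxed arrays. The median difference of the wild-type calls was 1.64 and -1.14 in wild-type arrays, and 1.39 and -0.99 in floxed arrays. A single gene, Rap1gap2, was called in the opposite direction.

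**Figure D5:**
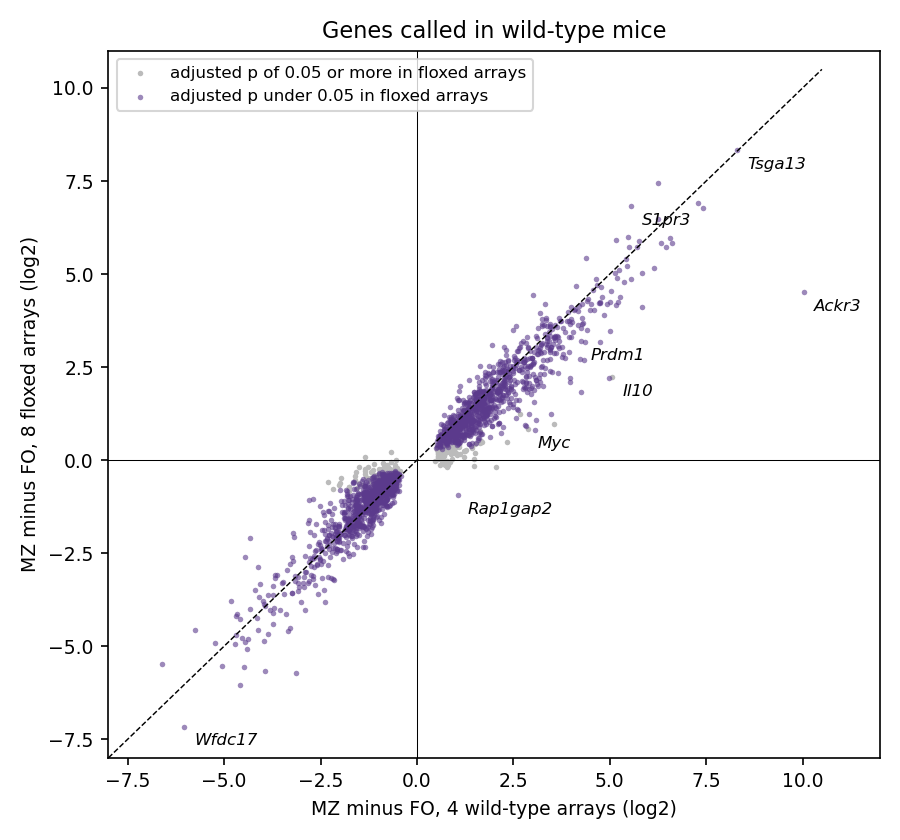
MZ minus FO in the 8 floxed arrays (average of heterozygous and homozygous) against MZ minus FO in the wild-type arrays, for the 2066 genes called in wild-type mice. Purple points were also called in the floxed arrays, the dashed line marks equal differences, and Ackr3 (4.51 against 10.03) and Rap1gap2 (-0.94 against 1.05) lie away from it.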

How the data were processed

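RNA from sorted B cells was measured on Affymetrix mouse genome arrays. The authors deposited log2 values for each probe set, and the submitters' processing notes name GCRMA, which corrects background by probe sequence, without a version in the sources used here. A probe set was named through the platform's annotation where it listed 1 symbol (34945 of 45101; 932 had several and 9224 none). Of these, 34741 matched RefSeq. Of several probe sets of a gene, that with the highest mean over 12 arrays was used, which left 18193 genes. The 9306 genes with a log2 value of at least 4 on at least 2 arrays were tested.

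One model of 6 group means over all 12 arrays was fitted in limma 3.58.1 (R 4.3.3), two-sided, with Benjamini-Hochberg adjustment over all genes tested and a threshold of 0.05. The floxed arrays were fitted alone. The fits were tested on 20 sets of simulated data with 200 genes changed. Of changes of 1 log2 unit 30% were called in the right direction, and of 2 units 84.8%. A gene not called may therefore still differ. Named genes were the 15 largest differences and 10 smallest p in each direction, up to 6 per list by p, and the genes of the gate. The largest differences were taken among called genes whose wild-type MZ and FO arrays did not overlap. Any other gene given with values was chosen after they were seen. The members and lists were chosen with earlier results of these data known. Alternatives changed the filter, probe sets, scaling, variance model, array weights and arrays used. Arrays give no read depth, and their number limits the precision.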

Additional observations from a re-analysis of the deposited data

Results flagged for a closer look

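Rap1gap2, which acts on the GTPase Rap1, was called in opposite directions in wild-type and floxed arrays. It measured 5.44 and 5.99 on the wild-type FO arrays and 6.86 and 6.68 on the MZ arrays, a difference of 1.05 ± 0.29 (limma adjusted p = 0.0319). In heterozygous mice it measured 6.33 and 6.38 in FO and 5.53 and 6.01 in MZ, and in homozygous mice 7.79 and 7.82 in FO and 6.89 and 6.13 in MZ. The wild-type call was lost with the replicate block (limma adjusted p = 0.0556), with array weights (0.113) and without any 1 of 7 arrays, which are wild-type FO replicate 1, both wild-type MZ arrays and the 4 floxed FO arrays (up to 0.172). The floxed difference was -0.94 (limma adjusted p = 0.0108). All wild-type MZ arrays lay above the FO arrays and all floxed MZ arrays below the FO arrays of their genotype. The difference between the differences was not tested.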

How the results depend on the processing

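With no filter on low values 6100 genes were higher in MZ and 1990 lower (floxed arrays 7396 higher), 7683 of these calls were shared with the floxed arrays, and 4579 of the 8090 differed by under 0.1. With every probe set tested on its own the counts were 12534 and 3543 (floxed 14663 and 6154, shared 15365), and 10071 of 16077 differed by under 0.1. A mean of at least 5 left 567 higher (floxed 867, shared 1240). Array weights left 615 lower, and centring left 1536 lower in the floxed arrays. The 4 wild-type arrays alone, which give no floxed value, had 371 higher and 233 lower. The cause of each shift was not tested. Genes higher in MZ made up 48.1% of calls, but 75.4% with no filter, 78.0% by probe set, 61.4% on 4 arrays and 58.2% after centring. Leaving out 1 array gave 708 (without FO replicate 2) to 1231 (without MZ replicate 2) higher, 599 to 1307 lower (the same arrays), and 1212 to 1806 shared calls of 1886. In floxed arrays it gave 1070 to 1346 higher and 1725 to 2452 lower. Dtx1 turned to -0.15 in the mean of its probe sets. Of 211 named genes 191 kept their direction and side of the threshold with array weights and 206 after centring, but 138 on the 4 wild-type arrays alone, where 71 lost the call.

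Arrays with the same replicate number did not deviate together in wild-type mice (correlation -0.22, heterozygous 0.12, homozygous 0.68). The replicate block gave 956 higher and 1047 lower (floxed 1550 and 3016, shared 1880). Crossed numbers, chosen after seeing the data, gave 1066 and 1258.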

Other observations

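Markers of germinal centre cells, the activated follicular B cells that mutate their antibody genes, did not move as a group. Of 14 listed 10 had a probe set and 5 were tested, of which 1 was higher in MZ and 1, Bcl6, lower. These were 20% each, against 10.7% and 11.5% of all genes. The higher gene was Fas, a death receptor whose protein CD95 the depletion targeted, at 5.82 and 5.95 in FO and 6.76 and 7.15 in MZ (1.07 ± 0.28, limma adjusted p = 0.0265). The call was lost without either FO array or MZ replicate 2 (limma adjusted p up to 0.113) and with array weights (0.105). Without FO replicate 2 the lower members were 2. Rgs13, a regulator of chemokine signals in germinal centre cells, measured 7.0 and 3.20 in FO and 3.55 and 2.56 in MZ and was not called (limma adjusted p = 0.18).

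Of 16 erythroid genes listed 12 had a probe set and 2 were tested. On MZ replicate 1, 4 of the 12 reached a log2 value of 4, against 1 on MZ replicate 2 and 2 on each FO array. Car1 measured 4.64 on MZ replicate 1 and 2.27 to 2.87 on the other wild-type arrays, and Ermap 4.63 against 2.22 to 2.31. Car2, carbonic anhydrase, measured 8.15 and 8.49 in FO and 6.68 and 2.49 in MZ, so that MZ replicate 1 lay nearer to the FO arrays (-3.74 ± 1.03, limma adjusted p = 0.033). The call was lost without any 1 of the other 10 arrays of the series (limma adjusted p up to 0.129) and with the replicate block (0.0523). Of 18 genes of T and NK cells 16 had a probe set and 3 were tested. Prf1, the pore-forming protein of killer cells, measured 2.30 and 2.28 in FO and 3.55 and 6.24 in MZ (2.60 ± 0.71, limma adjusted p = 0.0318). The call was lost without any FO array or either MZ homozygous array (limma adjusted p up to 0.114) and under quantile normalization (0.0654). The higher genes of this list were 2 without MZ replicate 2 or either MZ heterozygous array. Of the dendritic cell and platelet lists 3 and 0 genes were tested, with no call. These genes were named after their values were seen, and the part of other cells in their values was not tested.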
